A study of Mus musculus with 4 samples.

Results

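The collagen genes of the mouse were followed across the cell classes of the postnatal thyroid, in single-cell RNA sequencing data. Members were all genes of the deposited feature lists whose symbol was Col, a number, the letter a and a number, which gave 44 of 32285 genes by name alone. The study asked how thyroid follicles form after birth and sequenced the dissociated thyroid of C57 mice (C57BL/6 in the methods of the study) aged 5, 10, 20 and 30 days, with tissue of 10 mice pooled into 1 library for each age. The mice carried no transgene and received no treatment, so age was the only difference between the groups named by the labels. With 1 library per age there was no replicate of an age, and values across the ages have counting error only, as exact 95% Poisson intervals, which are plotted for selected genes and printed for H19, Col1a1 and Col8a1. The 4 libraries served as the replicates for comparisons between cell classes. Where 4 values follow each other for 1 gene, they stand in the order of the libraries labelled day 5, day 10, day 20 and day 30.

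The files held 1745460 to 2258644 droplet barcodes and 54921806 to 89039113 UMIs (unique molecular identifiers, 1 for each RNA molecule captured) per library, and 23114 cells passed the filters, namely 11210, 3929, 5076 and 2899. Of the listed barcodes of the libraries labelled day 10, day 20 and day 30, 97.4% to 98.8% also had at least 1 UMI in each of the other 2, and shares with or of the library labelled day 5 were 33.6% to 49.9%. Of the kept cells, 0.749% to 1.37% per library had a barcode with 200 or more UMIs in another library. The labels of the libraries at day 5 and day 30 were in doubt. In the methods of the study, day 30 has the most cells. Here the library labelled day 5 held the most kept cells, 11210, and that labelled day 30 the fewest, 2899. H19, an imprinted RNA that is abundant in fetal tissue and falls after birth, was read as a check after its values were seen, and it measured 64.1, 523, 70.5 and 1974 UMIs per 1000000 UMIs of a class (CPM) in the fibroblast-like cells of the 4 libraries (intervals 58.1 to 70.6, 501 to 546, 59.4 to 83.1 and 1891 to 2059 CPM). The highest value thus stood in the library labelled day 30 and the lowest in the library labelled day 5, whose interval overlapped that of day 20. No direction with age was therefore drawn from these libraries, and they are named by their labels throughout. The class comparisons were also run without these libraries.

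Collagens are extracellular proteins in which 3 chains wind into a triple helix, and each gene encodes 1 chain. Fibrillar collagens (types I, III and V among them) assemble into the fibrils of connective tissue. Network collagens of type IV form the sheet of the basement membrane under epithelium and endothelium and around muscle and Schwann cells, and in the thyroid each follicle and each capillary stands on such a sheet. Type VI forms beaded filaments near cells, the fibril-associated types (IX, XII, XIV, XVI, XIX, XX) sit on or between fibrils, the transmembrane types (XIII, XXIII) stay in the cell membrane, and the multiplexins (XV, XVIII) lie in or next to basement membranes.

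Sequences of 3 loci are shown because they carry the 2 most abundant transcripts of the family and the type IV pair that was most abundant in the vessel-lining cells. They were taken from RefSeq on GRCm38.p6, the build called mm10 in the labels, where 35 of the 44 members had a promoter entry. The 250 bases before the RefSeq start of Col1a2, the alpha 2 chain of type I collagen, lie on chromosome 6 at chr6:4505368-4505617 on the plus strand, with a CCAAT box in capitals at 109 bases before that start. In the GENCODE annotation used for the gene positions, Col1a2 begins further upstream, at base 4504814, so that this stretch lies within the longer gene model.

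Col1a2 promoter: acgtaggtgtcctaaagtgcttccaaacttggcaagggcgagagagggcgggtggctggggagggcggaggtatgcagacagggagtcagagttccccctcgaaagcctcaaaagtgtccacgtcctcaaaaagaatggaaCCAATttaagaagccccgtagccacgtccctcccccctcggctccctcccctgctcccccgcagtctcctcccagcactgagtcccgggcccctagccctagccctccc

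The 250 bases before the start of Col3a1, the only chain of type III collagen, lie at chr1:45311288-45311537 on the plus strand, with the letters TATAAA in capitals at 117 bases before the start.

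Col3a1 promoter: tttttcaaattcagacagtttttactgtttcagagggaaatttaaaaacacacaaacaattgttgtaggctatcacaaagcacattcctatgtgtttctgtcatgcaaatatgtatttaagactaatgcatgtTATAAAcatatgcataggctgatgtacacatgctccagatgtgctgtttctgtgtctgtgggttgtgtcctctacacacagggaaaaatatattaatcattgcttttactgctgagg

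Col4a1 (chr8:11198423-11312826, minus strand) and Col4a2 (chr8:11312805-11449287, plus strand) are transcribed away from each other, and their annotated 5′ ends share 22 bases, which are in capitals in the 30 bases at chr8:11312801-11312830 on the plus strand.

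Col4a1 and Col4a2 junction: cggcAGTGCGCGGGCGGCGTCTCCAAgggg

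CCAAT was present on either strand in the 250 bases before the start of 12 of the 35 members (Col1a2, Col4a1, Col4a2, Col4a5, Col5a3, Col6a4, Col7a1, Col11a1, Col16a1, Col17a1, Col18a1 and Col25a1), against 33.8% of 32851 promoters. TATAAA was present in 5 of the 35 (Col3a1, Col10a1, Col11a2, Col13a1 and Col17a1), against 12.4% of all promoters. These matches describe letters only. The other head-to-head pairs of type IV were spaced further apart, with 71 bases between Col4a3 and Col4a4 on chromosome 1 and 1308 bases between Col4a5 and Col4a6 on chromosome X.

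Cells were sorted into 8 classes by clusters and fixed marker genes, with collagen genes kept out of both. Fibroblast-like cells fell into an adventitial-like subset, a cluster whose leading genes were the type I and type III collagen chains, then Pi16 and Clec3b (154, 70, 29 and 24 cells), and the other fibroblast-like cells (1354, 517, 270 and 140). The 6 adventitial markers summed to 5138 to 7475 CPM in the first subset and to 293 to 334 CPM in the second, whereas the general fibroblast markers ran from 18478 to 31539 CPM over both. Mural cells, which wrap vessels, were split into pericyte-like (168, 89, 14 and 98 cells) and smooth-muscle-like cells (168, 39, 10 and 20). Blood-endothelial-like cells numbered 4146, 964, 404 and 414, follicular-like cells, the hormone-producing epithelium, 1877, 420, 166 and 296, and Schwann-like cells, the glia of peripheral nerve, 168, 91, 24 and 19. Lymphatic-endothelial-like cells reached the minimum of 10 cells per library only in the libraries labelled day 5 and day 20, with 48 and 12 cells. All markers of its own list were detected in each class, but the clusters were named by these same markers. Detection alone does not set the classes apart. Blood-endothelial-like cells, for example, also had all 9 fibroblast and all 8 follicular markers detected. Pericyte-like cells of the library labelled day 5 also carried blood endothelial markers at 4702 CPM, against 120.4 to 299 CPM in the other 3 libraries. They carried smooth muscle markers at 4812 CPM, against 898 to 1598 CPM. T markers reached 3743 CPM and C cell markers 1608 CPM in pericyte-like cells. Follicular markers measured 1234, 445, 3394 and 387 CPM in Schwann-like and 1524, 1800.2, 456 and 189 CPM in smooth-muscle-like cells. The part of these markers in the collagen levels was not tested. The adventitial-like cluster did not form, with 0 cells in all 4 libraries, when clusters were made without integration or with doublets kept.

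The fibroblast-like classes gave the largest part of their RNA to collagens. Collagen transcripts were 5.16% ± 1.86 (SD, n = 4) of all UMIs in adventitial-like and 4.53% ± 1.80 in other fibroblast-like cells. Schwann-like cells followed with 1.45% ± 0.720, then pericyte-like with 0.861% ± 0.502, blood-endothelial-like with 0.684% ± 0.355 and smooth-muscle-like cells with 0.473% ± 0.274. Lymphatic-endothelial-like cells held 0.130% ± 0.0421 (n = 2) and follicular-like cells 0.0667% ± 0.0214. Droplets outside the cell list with 10 to 100 UMIs, taken as free RNA, carried 0.114%, 0.516%, 0.173% and 0.563% collagen. T-like cells, which should make next to no collagen, carried 0.0148%, 0.159%, 0.00638% and 0.0190%, and those of the library labelled day 10 also carried blood endothelial markers at 1629 CPM. Follicular markers in T-like cells measured 3846, 375, 533 and 312 CPM in the 4 libraries. The libraries labelled day 10 and day 30 were the higher pair in every class with values in all 4 libraries, in T-like cells and in the free RNA.

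**Figure D1:**
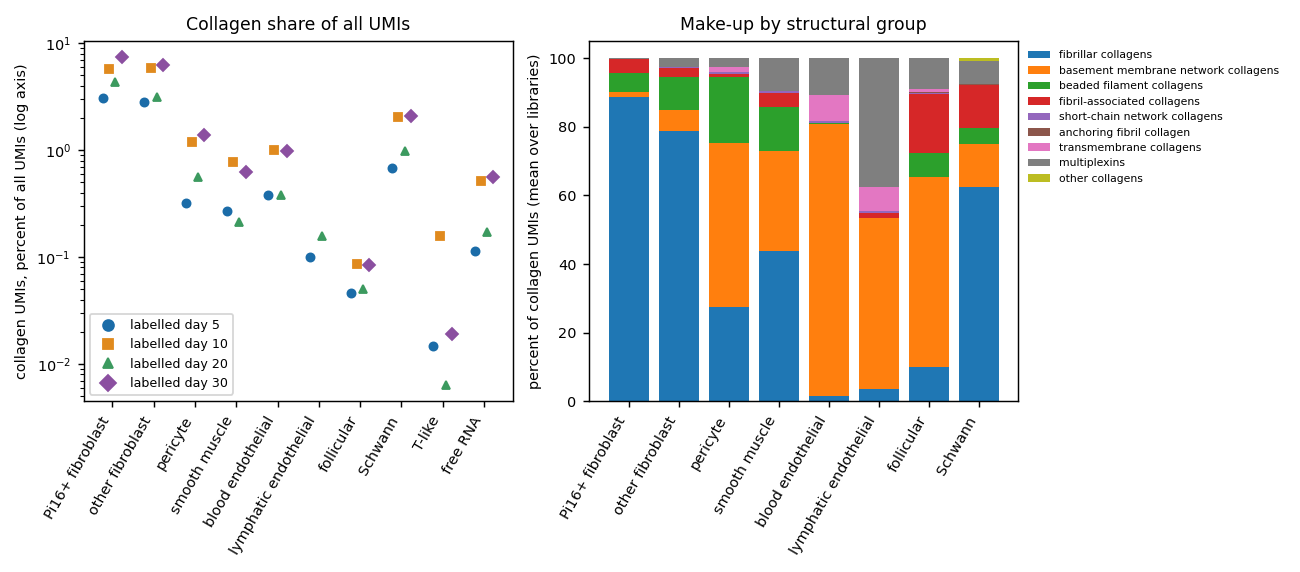
Collagen UMIs as a percent of all UMIs in each cell class, in T-like cells and in free RNA, on a log axis with 1 point per library (left), and the mean share of each structural group in the collagen UMIs of a class (right). The fibroblast-like classes sit highest at 5.16% and 4.53%, follicular-like cells lowest of the 8 classes at 0.0667%, with T-like cells below them in 3 of 4 libraries, and basement membrane chains make up 79.5% of collagen UMIs in blood-endothelial-like cells.

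The make-up of the collagen RNA also differed between classes. Fibrillar chains were 88.6% ± 2.69 of collagen UMIs in adventitial-like and 78.7% ± 6.65 in other fibroblast-like cells, 62.4% ± 5.13 in Schwann-like, 43.9% ± 10.0 in smooth-muscle-like, 27.5% ± 3.62 in pericyte-like and 1.41% ± 0.298 in blood-endothelial-like cells (SD, n = 4 each). Type IV chains were 79.5% ± 4.55 in blood-endothelial-like, 55.3% ± 6.31 in follicular-like, 49.9% ± 3.20 (n = 2) in lymphatic-endothelial-like and 47.8% ± 1.91 in pericyte-like cells. The multiplexins reached 37.6% ± 1.14 in lymphatic-endothelial-like cells (n = 2) and 10.6% ± 0.574 in blood-endothelial-like cells. Fibril-associated chains reached 17% ± 3.68 in follicular-like and 12.5% ± 3.03 in Schwann-like cells. These shares compare numbers of molecules caught at their 3′ ends, which do not grow with transcript length. Collagens were only 0.0457%, 0.0860%, 0.0507% and 0.0843% of all UMIs in follicular-like cells, below the free RNA of each library. Lymphatic-endothelial-like cells, at 0.0998% and 0.159%, also lay below the free RNA of their libraries. The part of free RNA in the make-up of these classes was not tested.

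**Figure D2:**
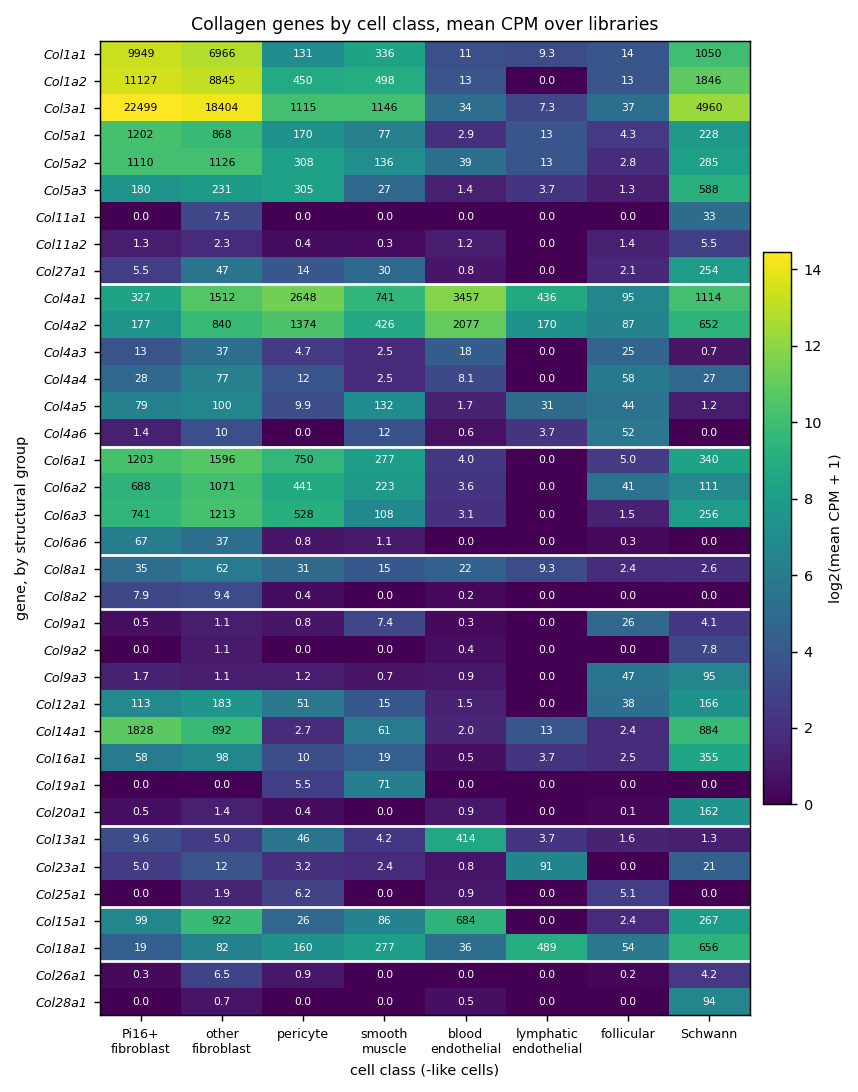
Mean level of collagen genes over libraries in each of the 8 cell classes, printed in CPM and coloured by log2 of CPM + 1, for the 36 members that reached 5 CPM in a class, in blocks by structural group (Pi16+ marks the adventitial-like subset). Types I and III are brightest in the fibroblast-like classes, Col4a1 and Col4a2 in blood-endothelial-like and pericyte-like cells, and Col20a1 and Col28a1 in Schwann-like cells.

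Col3a1 was the most abundant collagen transcript of the fibroblast-like cells, with 13256, 27186, 17420 and 32134 CPM in the adventitial-like and 10429, 26238, 10159 and 26792 CPM in the other subset. Its level was 4960.0 ± 3013 CPM in Schwann-like, 1146 ± 1134 in smooth-muscle-like, 1115 ± 737 in pericyte-like, 36.9 ± 34.2 in follicular-like and 34.5 ± 27.9 CPM in blood-endothelial-like cells. The last 2 classes overlapped, and T-like cells carried 15.6, 80.3, 13.1 and 61.1 CPM. Col1a2 followed with 11127 ± 3767 and 8845 ± 3546 CPM in the fibroblast-like subsets, and Col1a1, the alpha 1 chain of type I, with 9949 ± 5117 and 6966 ± 3539 CPM. In the order of class means for all 3 genes, the subsets overlapped each other and stood apart from Schwann-like cells. Col14a1, a fibril-associated chain, reached 1828 ± 510.4 and 892 ± 227 CPM in the fibroblast-like subsets and 884 ± 557 CPM in Schwann-like cells, and was at most 60.7 CPM on average in the other classes. The 3 main chains of type VI, Col6a1, Col6a2 and Col6a3, had means of 1596, 1071 and 1213 CPM in the other fibroblast-like cells and of 750.3, 441 and 528 CPM in pericyte-like cells. Col12a1, fibril-associated as well, was highest in other fibroblast-like cells at 42.8, 228, 59.1 and 402 CPM, a range that held the Schwann-like values of 103 to 194 CPM.

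The question of the first comparison was whether the 2 fibroblast-like subsets differed in collagens. Of the 6 type IV chains 5 were lower in the adventitial-like subset, as were both multiplexins, against 3.94% of all genes, and Col14a1 was higher. Col4a5, the sixth, had a log2 fold change of -0.26 (adjusted p = 0.716 by edgeR). Col15a1, a multiplexin of the basement membrane zone, measured 102, 118, 129 and 47.8 CPM in adventitial-like and 925, 904, 1013 and 848 CPM in the other cells, without overlap, a log2 fold change of -3.16 ± 0.43 (SE; adjusted p = 3.74e-06, edgeR quasi-likelihood test with library as a block). Col4a1 measured 244, 342, 523 and 198 CPM against 824, 1649, 1673 and 1900.3 CPM (log2 fold change -2.03 ± 0.32, adjusted p = 3.25e-05 by edgeR). Col4a2, which forms a trimer with it, had a log2 fold change of -2.10 ± 0.26 (adjusted p = 4.66e-07 by edgeR). Col4a3, Col4a4 and Col4a6 were lower too, as were Col18a1, the precursor of endostatin, and Col27a1, a fibrillar chain (log2 fold change -2.73 ± 0.40, and -4.06 without the library labelled day 5, where 2 adventitial-like UMIs were left). The call of Col4a6 (log2 fold change -2.28) was lost without the library labelled day 5 or day 10 (adjusted p = 0.0889 and 0.105 by edgeR). Col11a1, another fibrillar chain, had 0 UMIs in the adventitial-like and 60 in the other subset, at least 2.84-fold lower, and was no longer called without the library labelled day 10, day 20 or day 30 (adjusted p = 0.177, 0.0957 and 0.113 by edgeR). The only collagen that rose was Col14a1, with 1323, 2331, 1459 and 2198 CPM against 737, 1179, 686 and 968 CPM (log2 fold change 1.06 ± 0.22, adjusted p = 1.50e-03 by edgeR).

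Of the 31 collagens that passed the filter on low counts, 1 was higher in adventitial-like cells, against 3.97% of all 11028 genes tested, and 9 were lower, against 3.94% of all genes. The median log2 fold change was -0.64 over these collagens and -0.07 over all genes, and -0.39 with genes at 0 set to their bound. By group, 5 of 6 type IV chains and both multiplexins were lower, and the 8 tested fibrillar chains had a median of 0.22. None of the 4 tested type VI chains passed, with a median of -0.51. Still, Col6a1, Col6a2 and Col6a3 had lower means in adventitial-like cells, and their library ranges did not overlap between the subsets. Among 53 tested genes that fold, cut, cross-link, bind or degrade collagen, 10 were higher and 5 lower. Fn1, encoding fibronectin, was higher by 2.97 ± 0.23 on the log2 scale, Pcolce2, an enhancer of procollagen C-proteinase, by 2.03 ± 0.21, and Itga2, the collagen-binding integrin alpha 2 chain, by 3.06 ± 0.58. Sparcl1, a matricellular protein, had a log2 fold change of -3.42 ± 0.28 and Itga1, the integrin alpha 1 chain, one of -3.00 ± 0.37, while P3h2, a prolyl 3-hydroxylase, had 0 UMIs in adventitial-like cells and was at least 7.89-fold lower. With cells classed 1 by 1 from markers or thinned to 1000 UMIs, 4 and 5 collagens were called, all of them lower, and the log2 fold change of Col14a1 was 0.84 and 0.72 (adjusted p = 0.0822 and 0.0750 by edgeR). With no upper limit on UMIs per cell, Col14a1 (0.74), Col15a1 (-1.12), Col27a1 (-0.84), Col11a1 (-1.73) and Col4a6 (1.25) were not called.

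Fibroblast-like against mural cells compared the mean log level of both fibroblast-like subsets with that of both mural classes. Types I, III and VI, and Col5a1 and Col5a2 of type V, were higher in the fibroblast-like cells, and Col18a1, Col19a1, Col13a1 and Col4a2 were lower. Col1a1 measured 37.8, 220.1, 64.2 and 202.0 CPM in pericyte-like and 210.2, 593, 171 and 369 CPM in smooth-muscle-like cells, far below the fibroblast-like range of 3745 to 17047 CPM (log2 fold change 5.60 ± 0.23, adjusted p = 2.76e-18 by edgeR). Col14a1 differed most among the higher collagens, by 6.6 ± 0.26. Col6a6, a further type VI chain, came after Col1a1 and differed by 5.24 ± 0.59 (4.54 to 6.94 with any 1 library left out). The 3 UMIs of Col6a6 in mural cells stood against 473 in fibroblast-like cells. Col1a2, Col3a1 and Col5a1 (alpha 1 chain of type V) differed by 4.79 ± 0.19, 4.66 ± 0.24 and 3.59 ± 0.25.

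The chains higher in mural cells were led by Col19a1, a rare fibril-associated collagen known from muscle. It had 34, 6, 6 and 12 UMIs in smooth-muscle-like cells, 12, 0, 0 and 1 in pericyte-like cells, and 1 UMI in all fibroblast-like cells (47.0, 26.2, 114 and 98.4 CPM in smooth-muscle-like cells). The fitted log2 fold change, which rests on that 1 UMI, was -7.59 ± 0.88. The UMI lay in the library labelled day 5, without which fibroblast-like cells had 0 UMIs against 25, at least 72.0-fold lower. Col18a1 measured 342, 305, 190.1 and 271 CPM in smooth-muscle-like, 83.8, 181, 128 and 248 CPM in pericyte-like and 14.9 to 123 CPM in fibroblast-like cells (log2 fold change -2.20 ± 0.22, adjusted p = 1.68e-09 by edgeR). Col13a1, a transmembrane collagen, had a log2 fold change of -1.42 ± 0.53 but was lower in fibroblast-like cells in 2 of 4 libraries, and 74 of its 96 mural UMIs came from the pericyte-like cells of the library labelled day 5, which also carried the endothelial markers. Without the library labelled day 5 its log2 fold change was 2.05 (adjusted p = 0.439 by edgeR). Whether those markers contributed was not tested. Col4a2 differed by -0.59 ± 0.18, a call that was lost without the library labelled day 10 or day 30 (log2 fold change -0.43 and -0.30, adjusted p = 0.183 and 0.242 by edgeR). It turned to 0.30 and 0.29 (adjusted p = 0.210 and 0.282 by edgeR) without integration and with doublets kept, where all fibroblast-like cells were 1 class.

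Of 31 tested collagens 18 were higher in fibroblast-like cells, against 19.4% of all genes, and 4 were lower, against 16.5%, with a median log2 fold change of 1.97 over the collagens and 0.00 over all genes (1.89 with genes at 0 at their bound). All 4 tested type VI chains and 6 of 8 fibrillar chains were among the higher ones. Col5a3 of type V was called higher by 1.83 ± 0.27 on the mean of logs, but the mean levels were close, 205 against 166 CPM, and pericyte-like cells, at 305 CPM, lay above both fibroblast-like subsets (180.0 and 231 CPM) and smooth-muscle-like cells, at 27.0 CPM, below. The mean of logs likewise let Col4a6 and Col4a5 be called higher (log2 fold change 2.87 ± 1.09 and 1.62 ± 0.28) although the mean levels were close, 5.97 against 5.84 CPM and 89.9 against 71.1 CPM, because the pericyte-like cells had 0 UMIs of Col4a6 and 12 of Col4a5. Of 53 tested genes of the collagen machinery 42 were higher in fibroblast-like and 8 in mural cells. Pcolce2 (7.34 ± 0.29), Mmp2, a collagen-cutting protease (6.98 ± 0.38), and Omd, a fibril-binding proteoglycan (5.24 ± 0.58), led in log2 fold change, while Itga1 (-3.28 ± 0.22), P3h2 (-4.73 ± 0.68) and Itga10 (-2.40 ± 0.66) were lower. Fibroblast markers in pericyte-like cells were at 0.0678% to 0.638% of the other fibroblast-like level, whereas Col6a1 was at 16.8% to 77.6% and Col3a1 at 3.69% to 6.82%. The log2 fold changes of Pcolce2 and Mmp2 were 9.49 (from 2 mural UMIs) and 7.76 without the library labelled day 5, and that of Itga10 was -4.75 without the library labelled day 10. Without both libraries labelled day 5 and day 30, 18 collagens were higher and 1 was lower.

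Smooth-muscle-like and pericyte-like cells differed in type IV, V and VI chains. Col5a3, the alpha 3 chain of type V, measured 112, 458, 235 and 416 CPM in pericyte-like and 4.15, 30.5, 57.0 and 16.4 CPM in smooth-muscle-like cells, where it rested on 15 UMIs (log2 fold change -4.0 ± 0.45, adjusted p = 1.35e-07 by edgeR). Col4a1 measured 912, 3675, 1861 and 4146 CPM against 364, 780.2, 285 and 1533 CPM, lower in smooth-muscle-like cells in each library (log2 fold change -1.59 ± 0.32). Col4a2, Col6a1 and Col6a3 also fell, by 1.44 ± 0.26, 1.20 ± 0.35 and 1.94 ± 0.35 on the log2 scale, as did Col5a2, and Col6a1 was no longer called without the library labelled day 20 or day 30 (log2 fold change -1.07 and -0.85, adjusted p = 0.0846 and 0.191 by edgeR). Col13a1 had a log2 fold change of -2.41 ± 0.68, again resting on the pericyte-like cells of the library labelled day 5, with 122 CPM there and 0, 42.8 and 19.3 CPM in the others, and it was not called without the library labelled day 5 (adjusted p = 0.132 by edgeR) or day 20 (-2.28, adjusted p = 0.0512). Without the library labelled day 5, 0 UMIs in smooth-muscle-like cells stood against 10, at least 1.81-fold lower.

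In the other direction, Col4a5, an X-linked type IV chain, measured 116, 179, 152 and 82.0 CPM in smooth-muscle-like and 18.1, 0, 21.4 and 0 CPM in pericyte-like cells (log2 fold change 4.02 ± 0.46, adjusted p = 1.67e-07 by edgeR), with no overlap, and the log2 fold change was 6.63 without the library labelled day 5, where 1 pericyte-like UMI was left. Its neighbour Col4a6 had 9 UMIs in smooth-muscle-like and 0 in pericyte-like cells, at least 3.6-fold higher, which was not called without the library labelled day 5 or day 30 (adjusted p = 0.0544 and 0.0640 by edgeR). Col14a1 (68 against 5 UMIs, log2 fold change 4.31 ± 0.55), Col19a1 (3.12 ± 0.65), Col1a1 (1.77 ± 0.32) and Col18a1 (1.21 ± 0.28) were also higher in smooth-muscle-like cells. Without the library labelled day 5, Col14a1 and Col19a1 had log2 fold changes of 5.24 and 5.71, from 2 and 1 pericyte-like UMIs, and Col18a1 was not called (0.62, adjusted p = 0.152 by edgeR). Col14a1 was at 3.72 without the library labelled day 10, and Col19a1 at 2.40 without that labelled day 30 (adjusted p = 0.0539 by edgeR). The part of the smooth muscle markers that the pericyte-like cells of the library labelled day 5 carried, at 4812 CPM, was not tested. Thus 6 of 31 collagens were higher, against 6.76% of all genes, and 7 were lower, against 6.24%, with a median of -0.19 beside -0.09 over all genes (0.00 with genes at 0 at their bound). Of the 53 machinery genes 6 were higher, led by Lox, the collagen cross-linking oxidase (7.71 ± 0.83, 137 against 1 UMI), Omd (20 against 0 UMIs, at least 8.0-fold) and Loxl1 (2.40 ± 0.42). There were 11 lower, led by Mrc2, a collagen uptake receptor (-2.64 ± 0.67), Colgalt2, a collagen galactosyltransferase (-2.23 ± 0.55), and Nid2, a basement membrane linker (-2.10 ± 0.59). Fibroblast markers were at 0.723% to 3.99% of the other fibroblast-like level in smooth-muscle-like cells, beside 3.37% to 6.62% for Col1a1 and 0% to 12.6% for Col14a1, and their part in these values was not tested. Of the machinery genes, Mrc2 and Nid2 were not called without the library labelled day 10 (log2 fold change -2.03 and -1.61, adjusted p = 0.0925 and 0.131 by edgeR) nor Colgalt2 without that labelled day 30 (-1.73, adjusted p = 0.0794), and Lox was at 6.72 without that labelled day 30. Without that labelled day 5, Lox had 0 pericyte-like UMIs and was at least 53.4-fold higher, Mrc2 had 0 smooth-muscle-like UMIs and was at least 5.79-fold lower, and Colgalt2 was at -3.40 from 1 smooth-muscle-like UMI. Only 8 collagens, 4 in each direction, were called without the library block, and 7 without both libraries labelled day 5 and day 30, 3 of them higher.

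**Figure D3:**
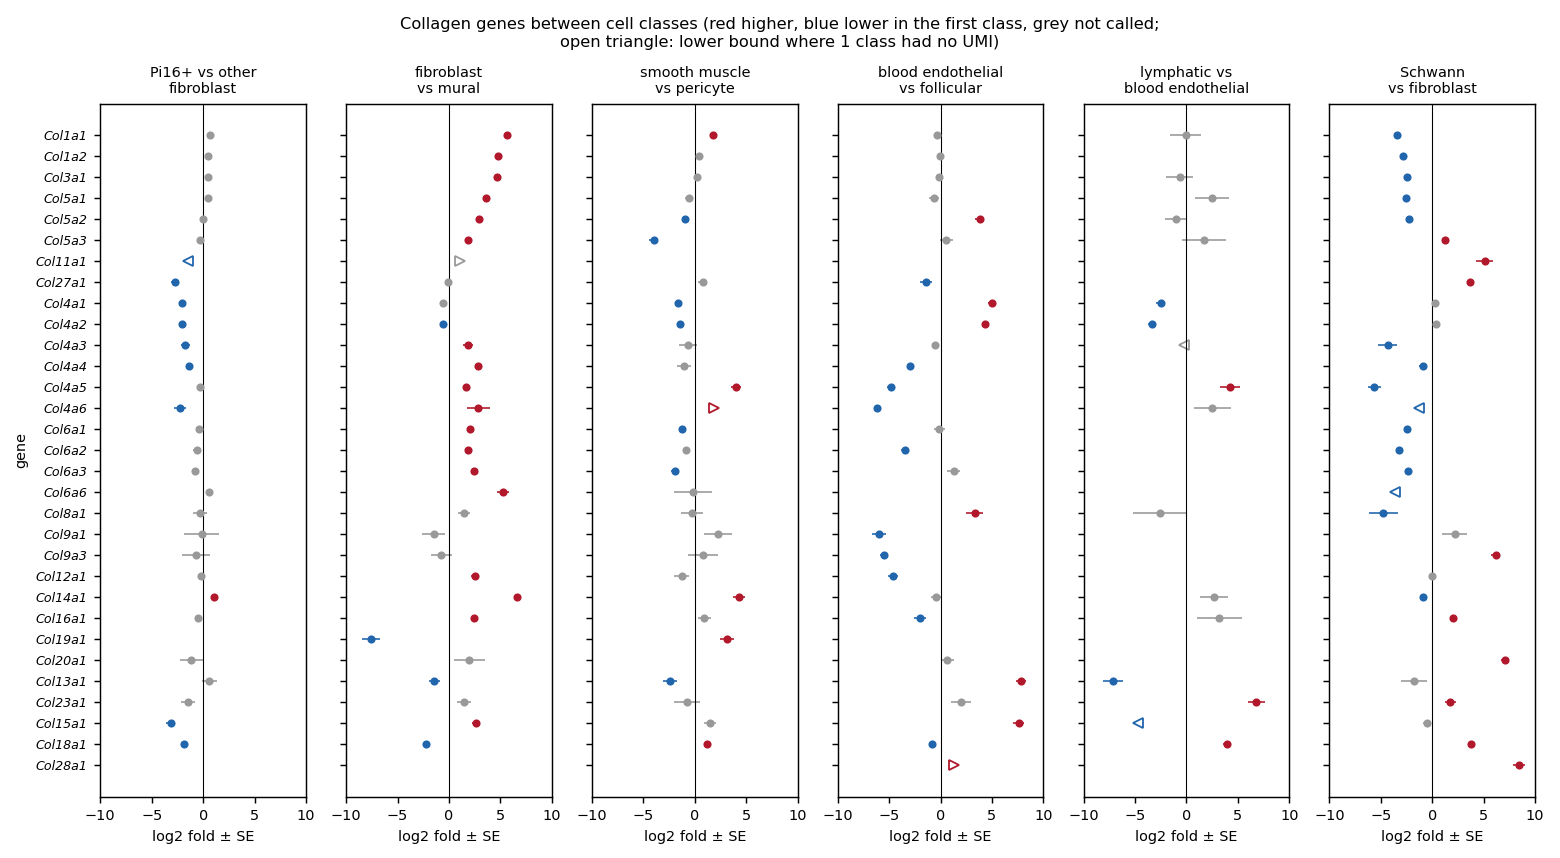
Log2 fold change ± SE of collagen genes in the 6 class comparisons, from edgeR on UMI sums with library as a block; red and blue points passed an adjusted p of 0.05 and grey points did not, and open triangles mark the lower bound where 1 class had 0 UMIs. Types I and III lie far to the right between fibroblast-like and mural cells, and the type IV chains Col4a1 and Col4a2 lie on the opposite side from Col4a5 and Col4a6 between blood-endothelial-like and follicular-like cells.

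Blood vessels and follicles both stand on a basement membrane, and the comparison of their lining cells asked which collagens each cell type transcribed. Of the 6 type IV chains 2 were higher in blood-endothelial-like cells, 3 were lower, and Col4a3 did not pass the test, with 18.2 against 25.1 CPM on average (log2 fold change -0.53 ± 0.27, adjusted p = 0.0906 by edgeR), beside 30.2% of all genes higher and 29.9% lower. Col4a1 measured 1654, 5208, 1568 and 5399 CPM in blood-endothelial-like and 53.5, 143, 74.9 and 109 CPM in follicular-like cells (log2 fold change 4.95 ± 0.36, adjusted p = 2.43e-13 by edgeR), and Col4a2 differed by 4.36 ± 0.27. The part of free RNA in the follicular-like levels of these 2 chains was not tested. Col4a6 had the opposite pattern, with 47.1, 62.6, 41.2 and 56.6 CPM in follicular-like and 1.07, 0.264, 0 and 0.929 CPM in blood-endothelial-like cells (log2 fold change -6.16 ± 0.35, adjusted p = 5.82e-14 by edgeR). Follicular-like cells had the highest mean of Col4a6 of the 8 classes and stood apart from the next, smooth-muscle-like cells. Col4a5 measured 35.7, 44.0, 43.1 and 54.3 CPM against 1.32 to 1.99 CPM (log2 fold change -4.83 ± 0.35), and Col4a4, with 57.5 ± 8.04 CPM against 8.07 ± 1.41 CPM, differed by -2.95 ± 0.22.

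Col13a1 was at 395, 425, 480.4 and 357 CPM in blood-endothelial-like cells against 1.62 ± 1.34 CPM in follicular-like cells (log2 fold change 7.78 ± 0.48, adjusted p = 6.41e-15 by edgeR). A UMI of Col13a1 was seen in 55.0%, 65.7%, 63.9% and 64.0% of blood-endothelial-like cells and in 31.0%, 33.2%, 35.8% and 27.1% after thinning to 1000 UMIs per cell. Here and elsewhere, thinning left out the cells with under 1000 UMIs, so the thinned shares are of fewer cells. In T-like cells the shares were 1.17%, 5.91%, 0.201% and 0.177%, or 0.320%, 3.12%, 0% and 0% after thinning. Col15a1 measured 408, 959.8, 364 and 1004 CPM against 0 to 4.62 CPM (log2 fold change 7.58 ± 0.57). Col5a2, a type V chain, and Col8a1, a short-chain network collagen of vessels, were higher by 3.80 ± 0.41 and 3.31 ± 0.84, and Col28a1, a collagen known from peripheral nerve, had 11 against 0 UMIs, at least 2.39-fold higher.

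Of the 3 chains of type IX, best known from cartilage, Col9a1 and Col9a3 were on the side of the follicular-like cells, while Col9a2, with 0 UMIs there and 5 in blood-endothelial-like cells, was not tested. Col9a3 measured 18.6, 70.8, 31.8 and 68.2 CPM there and 0.465 to 1.33 CPM in blood-endothelial-like cells (log2 fold change -5.50 ± 0.37, adjusted p = 6.67e-14 by edgeR), and Col9a1 measured 5.58, 23.9, 13.1 and 63.6 CPM against 0 to 0.929 CPM (-5.99 ± 0.66). The chondrocyte marker list (6 genes, 2 of them detected) summed to 0.745 to 7.49 CPM in follicular-like cells, with Acan, Matn1, Matn3 and Comp at 0. The tendon list (3 genes, with Mkx at 0) summed to 69.3 to 173 CPM in follicular-like cells, against 1.39 to 9.28 CPM in blood-endothelial-like and 0 to 17.4 CPM in fibroblast-like cells, and its part in these levels was not tested. A UMI of Col9a3 was seen in 8.90%, 16.2%, 7.83% and 15.5% of follicular-like cells, against 0.438% to 0.844% of T-like cells, and after thinning in 1.93%, 6.05%, 3.08% and 9.23% against 0% to 0.160%. Col12a1 (32.1 to 43.9 CPM, log2 fold change -4.65 ± 0.51) and Col6a2 (30.0 to 55.9 CPM, -3.48 ± 0.39) were also on the follicular side. Its partner chains Col6a1 and Col6a3 measured 5.04 ± 3.64 and 1.49 ± 2.11 CPM there.

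Altogether 7 of 31 collagens were higher in blood-endothelial-like cells, against 30.2% of all genes, and 10 were lower, against 29.9%, with a median log2 fold change of -0.31 beside 0.03 over all genes (-0.13 with genes at 0 at their bound). Of 53 machinery genes 29 were higher and 9 lower. Sparcl1 (7.24 ± 0.34) and Nid1, the basement membrane linker nidogen (6.36 ± 0.37), led the higher ones together with Creb3l1, a regulator of procollagen export with 101 against 0 UMIs, at least 21.9-fold. Ddr1, a collagen receptor kinase (-5.09 ± 0.29), Prelp, a basement-membrane-anchoring proteoglycan (-3.26 ± 0.42), and Itga11 (13 against 1 UMI) led the lower ones. Fibroblast markers were at 0.151% to 0.437% of the other fibroblast-like level in blood-endothelial-like and at 0.558% to 2.33% in follicular-like cells, while Col3a1 was at 0.0913% to 0.259% and 0.0369% to 0.250%. Without the library labelled day 5 the log2 fold changes were 8.28 for Col15a1 and -6.79 for Col4a6, the latter from 3 blood-endothelial-like UMIs. Without both libraries labelled day 5 and day 30, 5 collagens were higher and 7 lower, and Col8a1 (2.51, adjusted p = 0.0536) and Itga11 (1 UMI left in all, adjusted p = 0.228 by edgeR) were not called.

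**Figure D4:**
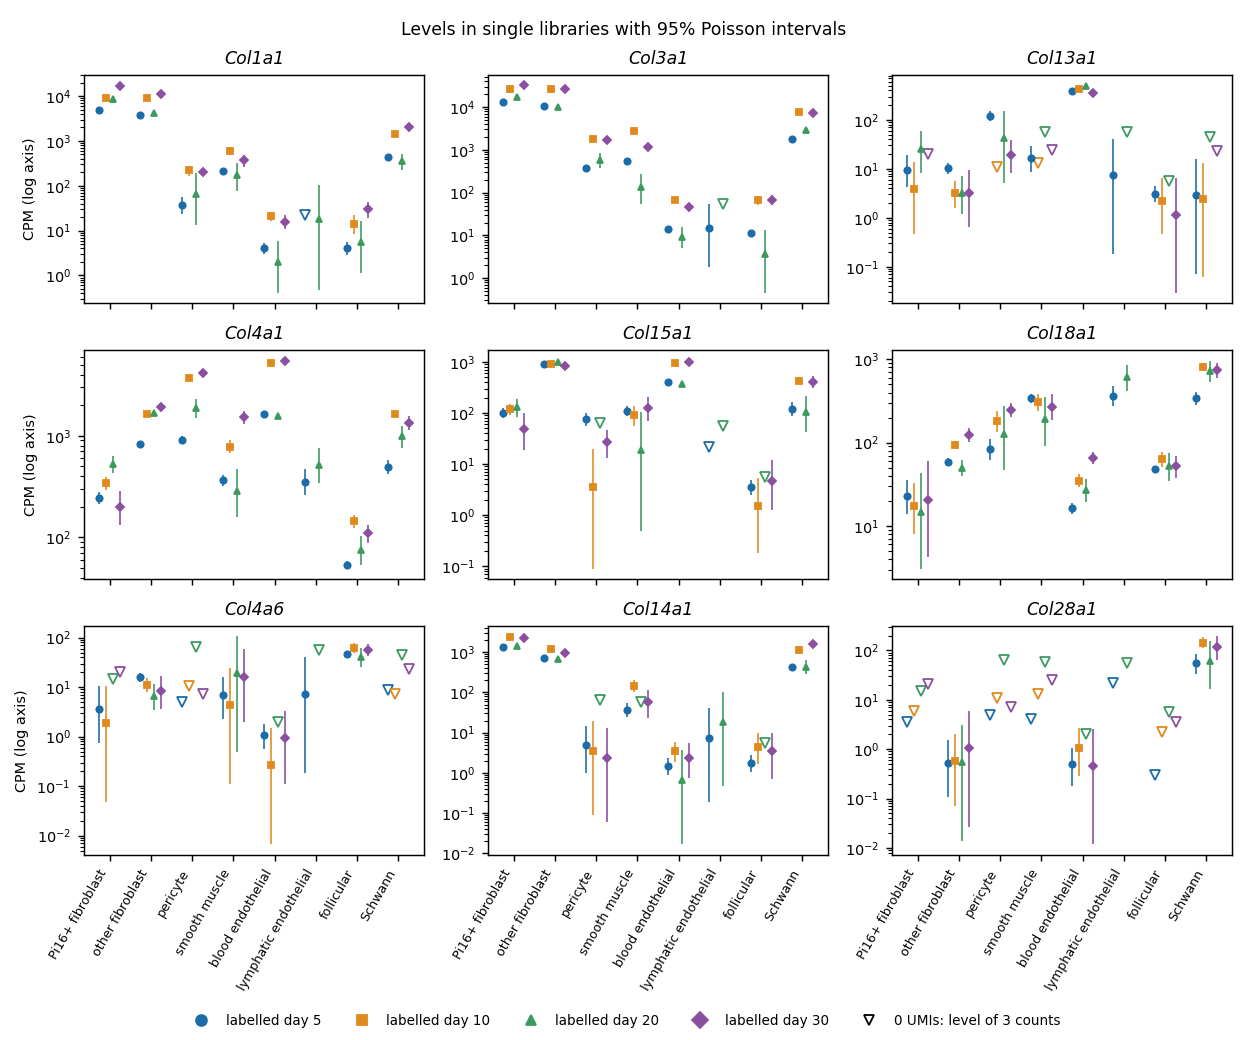
Level in CPM of selected collagens in each cell class, on a log axis, with 1 point per library and its exact 95% Poisson interval, and an open triangle at the level of 3 counts where a class had 0 UMIs. Col13a1 is at 357 to 480.4 CPM in blood-endothelial-like cells and Col4a6 at 41.2 to 62.6 CPM in follicular-like cells.

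Within the blood-endothelial-like class, collagen levels differed between clusters. These are described without a test, and the clusters and genes were chosen after their values were seen. Cluster 22, with 304 cells and with Cldn5, Gkn3 and Sox17, known from arteries, among its leading genes, held Col18a1 at 484 ± 234 CPM (SD over 4 libraries), against means of 2.43 to 38.3 CPM in 4 other blood-endothelial-like clusters. It held Col5a2 at 301 ± 236 CPM, against 11.2 to 76.1 CPM. Its Col4a1 was at 677 ± 204 CPM and its Col15a1 at 43.2 ± 13.1 CPM, both under the other clusters, where the means were 1827 to 4403 CPM and 537 to 849 CPM. Col13a1 had its highest means in clusters 2 and 7, led by Esm1 and Plvap, at 531 ± 56.1 and 496 ± 86.6 CPM. Cluster 0, also led by Plvap, held 386 ± 96.7 CPM, and its range of 289 to 519 CPM overlapped both. Clusters 19 (105 ± 50.5 CPM) and 22 (145 ± 64.3 CPM) were lower. Col4a1 was higher in the libraries labelled day 10 and day 30 than in the other 2 in each of these 5 clusters.

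**Figure D5:**
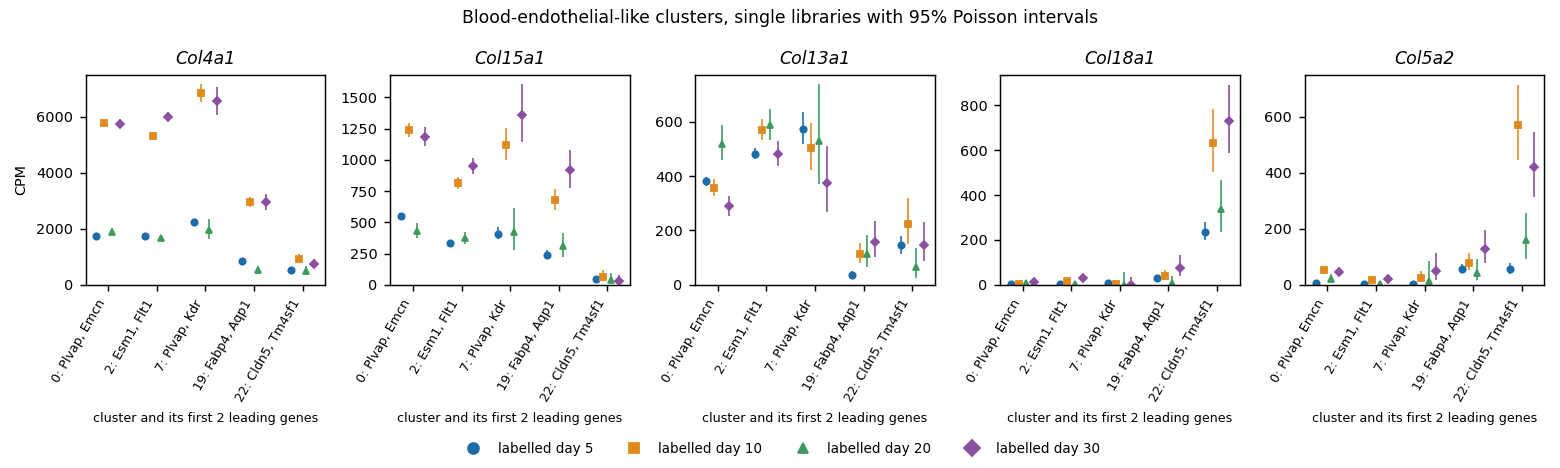
Level in CPM of 5 collagens in 5 blood-endothelial-like clusters, each named by number and its first 2 leading genes, with 1 point per library and its exact 95% Poisson interval. Cluster 22 has the highest Col18a1 (mean 484 CPM) and the lowest Col15a1 (mean 43.2 CPM).

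Lymphatic-endothelial-like cells were lower in Col15a1, Col13a1, Col4a1 and Col4a2 than blood-endothelial-like cells and higher in Col18a1, Col23a1 and Col4a5. This comparison rested on 2 libraries, those labelled day 5 and day 20, with 48 and 12 cells. Col15a1 had 0 UMIs in lymphatic-endothelial-like cells, at least 25.6-fold lower than in blood-endothelial-like cells of the same libraries. Col13a1 had 1 UMI there against 5533 in the blood-endothelial-like cells of these libraries. The lymphatic-endothelial-like cells also carried blood endothelial markers at 2114 and 1834 CPM, against 14817 and 15164 CPM in the blood-endothelial-like cells of these libraries, with 7 of 8 markers detected and Esm1 at 0. The list includes Pecam1 and Cdh5, which lymphatic endothelium also expresses, and the part of these markers in the result for Col4a1 and Col4a2 was not tested. Col4a1 measured 352 and 519 CPM and was lower (log2 fold change -2.52 ± 0.46, adjusted p = 2.47e-04 by edgeR), as was Col4a2 at 117 and 222 CPM (-3.33 ± 0.41). Col18a1, in contrast, measured 367 and 611 CPM against 16.3 to 66.0 CPM in blood-endothelial-like cells of all 4 libraries (3.93 ± 0.36, adjusted p = 1.18e-09 by edgeR). Col23a1, a transmembrane collagen, measured 51.4 and 129.7 CPM from 14 UMIs against 0 to 2.32 CPM (6.79 ± 0.83), and Col4a5, from 7 UMIs, was higher by 4.23 ± 0.98.

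In this comparison 3 of 31 collagens were higher, against 4.21% of all genes, and 4 were lower, against 5.82%. The medians were -2.52 over the collagens and -0.41 over all genes, and 0.00 with genes at 0 at their bound, and many collagens had 0 UMIs among these cells. Of the machinery, 7 genes were higher, led by Prelp (6.46 ± 0.52), Tnxb, the matrix protein tenascin X (6.0 ± 0.44), and Timp2, a metalloproteinase inhibitor (4.77 ± 0.27). There were 6 lower, led by Sparcl1 (0 UMIs, at least 80.0-fold), Colgalt2 (0 UMIs, at least 4.01-fold) and Sparc, a collagen chaperone of the matrix (-6.54 ± 0.41). Without the library labelled day 5 the class rested on 1 library, whose spread was assumed to be like that of the other classes, and 5 collagens were called, 1 higher (Col18a1) and 4 lower. Col4a5 (1 against 3 UMIs, adjusted p = 0.558) and Colgalt2 (adjusted p = 0.385 by edgeR) were then not called, Col23a1 did not pass the filter, and Sparc was at -8.0 from 1 UMI.

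Schwann-like cells had the highest mean share of collagen UMIs after the fibroblast-like cells, and the comparison asked how their set differed from that of fibroblast-like cells. Col28a1, Col20a1, Col9a3, Col11a1, Col18a1 and Col27a1 rose most. Col28a1 measured 54.4, 144, 60.6 and 116 CPM against a mean of 0.340 CPM in fibroblast-like cells (log2 fold change 8.44 ± 0.60, adjusted p = 1.79e-09 by edgeR). Col20a1, a little-studied fibril-associated chain, measured 120.3, 156, 303 and 69.7 CPM against 0.925 CPM (7.04 ± 0.39, adjusted p = 3.77e-14 by edgeR), and the highest mean among the other classes was 1.37 CPM. Col9a3 measured 31.5, 95.7, 106 and 147 CPM (6.16 ± 0.47), Col11a1 32.9 CPM on average from 25 UMIs (5.08 ± 0.84), Col27a1 269, 278, 212 and 256 CPM (3.63 ± 0.26) and Col18a1 344, 811, 727 and 743 CPM (3.72 ± 0.24). Col16a1 (355 ± 140.3 CPM, log2 fold change 2.01 ± 0.22) and Col5a3 (588 ± 211 CPM, 1.24 ± 0.23) had their highest class means in Schwann-like cells as well.

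Types I, III and VI were lower in Schwann-like cells. Col1a1 measured 435, 1409, 348 and 2006 CPM in Schwann-like cells (log2 fold change -3.40 ± 0.27, adjusted p = 8.96e-12 by edgeR), Col1a2 differed by -2.81 ± 0.22 and Col6a2 by -3.23 ± 0.34. Col14a1, at 418, 1115, 439 and 1564 CPM, differed least among the lower ones (-0.90 ± 0.21), and was lower in 3 of 4 libraries. Fibroblast markers in Schwann-like cells were at 0.144% to 1.95% of the other fibroblast-like level, whereas Col1a1 was at 8.24% to 18.3%, Col3a1 at 17.3% to 29.3% and Col14a1 at 56.8% to 162%. Col6a6 and Col4a6 had 0 UMIs in Schwann-like cells, at least 12.3-fold and 2.38-fold lower, Col4a5 and Col8a1 had 2 each, and Col4a3 had 1. Col4a6 was not called without the library labelled day 5 or day 10 (adjusted p = 0.163 and 0.0907 by edgeR), nor Col8a1 without that labelled day 10 (adjusted p = 0.0810).

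In all, 9 of 31 collagens were higher in Schwann-like cells, against 13.7% of all genes, and 15 were lower, against 16.1%, with a median of -0.90 beside -0.04 over all genes (-0.90 with genes at 0 at their bound). Of the fibrillar chains 3 were higher and 5 lower, and all 4 tested type VI chains were lower. The machinery was mostly lower, 38 of 53 genes, including Omd (0 UMIs, at least 15.4-fold), Itga11, the fibroblast collagen integrin (0 UMIs, at least 9.82-fold), and Pcolce2 (2 against 5583 UMIs). There were 7 higher, led by P3h2 (5.08 ± 0.73), Itga2 (4.02 ± 0.38) and Itga1 (2.82 ± 0.26). The log2 fold change was 8.54 for Col20a1 without the library labelled day 10, 5.56 and 7.80 for Col9a3 without those labelled day 10 and day 30, and 4.36 for Col27a1 without that labelled day 5. Without both libraries labelled day 5 and day 30, 7 collagens were higher and 13 lower.

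Ratios between chains of related trimers were compared without a test. Over the libraries in which both chains together had at least 20 UMIs, Col1a1 to Col1a2 was 0.858 ± 0.157 in adventitial-like, 0.761 ± 0.0975 in other fibroblast-like, 0.702 ± 0.123 in smooth-muscle-like (n = 4 each) and 0.303 ± 0.0895 in pericyte-like cells (n = 3). The pericyte-like ratios, 0.224 to 0.400, lay below those of these 3 classes but overlapped the Schwann-like ones, which ran from 0.383 to 0.646. Col3a1 to Col1a1 was 8.94 ± 0.901 in pericyte-like cells against 2.39 ± 0.514 and 2.64 ± 0.256 in the fibroblast-like subsets and 5.45 ± 2.18 in Schwann-like cells (n = 4 each), where the highest value of 8.52 lay within the pericyte-like range of 8.13 to 10.2. Col5a3 to Col5a2 was 2.38 ± 1.21 in Schwann-like and 1.10 ± 0.449 (n = 3) in pericyte-like cells and 0.224 ± 0.0716 in other fibroblast-like cells. Col4a5 to Col4a6 was 0.866 ± 0.163 in follicular-like and 10.3 ± 3.03 in other fibroblast-like cells, and Col4a1 to Col4a2 stayed between 1.13 ± 0.299 in follicular-like and 2.67 ± 0.471 (n = 2) in lymphatic-endothelial-like cells. Col6a1 to Col6a2 was 1.49 ± 0.103 in other fibroblast-like but 0.124 ± 0.0973 (n = 3) in follicular-like cells.

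The libraries differed in their level of type I collagen. In other fibroblast-like cells Col1a1 measured 3745, 8958, 4227 and 10933 CPM and Col1a2 5538, 11561, 6039 and 12241 CPM, so that the libraries labelled day 10 and day 30 were high and the others low. The intervals of Col1a1 were 3695 to 3796, 8859 to 9058, 4133 to 4322 and 10722 to 11147 CPM. Free RNA carried Col1a1 at 99.2, 555, 162 and 716 CPM in the same order. The levels of some other chains were nearer to each other across the libraries. Col15a1 in other fibroblast-like cells measured 925, 904, 1013 and 848 CPM, Col6a1 1413, 1573, 1805 and 1592 CPM, the fibrillar Col5a3 220.0, 256, 227 and 221 CPM, and Col4a5 111, 107, 94.2 and 88.8 CPM. Col8a1 stood the other way, with 105, 21.5, 108 and 13.9 CPM, high in the libraries labelled day 5 and day 20. Its intervals were 97.2 to 114, 16.9 to 27.0, 93.8 to 125 and 7.41 to 23.8 CPM. Each library is a single pool, so an age effect and a difference between libraries cannot be told apart.

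In the other fibroblast-like class, cluster 29 (127 cells, with Ptn and Penk among its leading genes) held Col4a5 at 326 ± 23.0 CPM and Col13a1 at 54.5 ± 6.89 CPM, against 87.9 ± 8.15 and 2.23 ± 1.49 CPM in the larger cluster 1. Its Col4a1 was lower, at 513 ± 81.4 CPM against 1566 ± 480.1 CPM, with ranges of 420.3 to 573 and 872 to 1976 CPM. Values are means ± SD over 3 libraries for cluster 29, which had 8 cells in that labelled day 30, and over 4 for cluster 1. These values were also chosen after they were seen and have no test.

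The remaining 13 members did not pass the filter on low counts and were not tested. Col2a1, the main collagen of cartilage, Col10a1, Col6a4, Col17a1, Col22a1 and Col24a1 had 8 UMIs or fewer in the 8 classes together, and Col6a5, Col7a1, Col8a2, Col9a2, Col11a2, Col25a1 and Col26a1 had 18 to 127. No member had 0 UMIs in the 8 classes together.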

How the data were processed

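Thyroid tissue was digested with collagenase and dispase, dead cells were removed, and droplets were sequenced by a 3′ chemistry. Per the labels, the authors aligned reads to mm10 with CellRanger and deposited raw UMI counts for all droplets. Members and gene lists were chosen with earlier results of these data known.

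The authors' pooled table of counts served only as a list of 37503 cell barcodes, each read in the library where it had most UMIs. Cells with at least 200 and at most 10000 UMIs, at most 10% mitochondrial and 5% hemoglobin UMIs were kept, after removal of the 6% with the highest Scrublet scores (scanpy 1.11.5). The upper UMI limit removed unequal parts of the libraries. It left 11926 of 13783, 4180 of 6013, 5400 of 6543 and 3084 of 5128 cells that had passed the other limits. The score's own threshold marked 655 cells in the library labelled day 5 but 2 to 32 in the others, so this fixed percentage was used. Libraries were integrated with SCTransform in Seurat 5.3.0 (3000 features without collagens, 30 principal components, resolution 0.9). Clusters were named by fixed markers, and mural cells were split in 2 by k-means. UMIs were summed per class and library with at least 10 cells, which gave 30 sums. Classes were compared with edgeR 4.0.16 (quasi-likelihood test, TMM, library as a block, filterByExpr, Benjamini-Hochberg over 11028 genes, threshold 0.05). The SE of a log2 fold change was its size divided by the square root of the F statistic of this test, and was not estimated directly. Where a fold rests on a few UMIs, this SE can be smaller than the counting error, so such folds are less precise than it shows. The fit was also run on simulated sums without a library effect, for the comparison of the fibroblast-like subsets only. As the clusters came from the same cells, the p-values are not independent of the choice of classes, although collagens played no part in it. The machinery genes were not kept out of the clustering, and Lox was among the leading genes of the smooth-muscle-like part of the mural cells. The replicates were single pools of 10 mice of different labelled age. Where a class had 0 UMIs, the bound was taken from 3 counts over that class in the libraries that held all classes compared, against the mean of the other classes. Intervals and bounds cover counting error only. Levels are CPM of the summed UMIs of a class.

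Named were members with at least 100 CPM in a class, per comparison up to 6 called collagens and 3 called machinery genes per direction by log2 fold change, and further called members. H19 and genes of single clusters were added after their values were seen.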

Additional observations from a re-analysis of the deposited data

Results flagged for a closer look

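The class ratio of 5 collagens pointed opposite ways in a pair of libraries, each beyond its counting error. The differences between the libraries were not tested, since each library is a single pool. Between adventitial-like and other fibroblast-like cells, Col8a1 had a log2 ratio of 2.43 where the label was day 10 and of -4.44 where it was day 20, the latter from 1 adventitial-like UMI against 198 (95% interval -9.76 to -1.95). In the same comparison, the ratio of Col12a1 was 0.94 at the label day 5 and -2.18 at the label day 30. Between smooth-muscle-like and pericyte-like cells, the log2 ratio of Col1a2 was 0.89 at the label day 5 and -0.43 at day 30. Col3a1 was at 0.60 for the label day 10 and at -2.12 for day 20. Col5a1 was at 1.24 for day 5, and at day 20 it had 0 smooth-muscle-like UMIs against 7, a log2 ratio of -1.39 or below with 3 counts in place of 0. The pericyte-like and smooth-muscle-like classes of the library labelled day 20 held 14 and 10 cells.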

How the results depend on the processing

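The number of called collagens stayed within 1.5 times of the reported one in 99 of 104 alternatives that gave a value, and 99 of 100 alternative collagen shares moved by less than 1 SD. The number does not show which collagens were called. Between the fibroblast-like subsets, for example, Col14a1, Col15a1, Col27a1, Col11a1 and Col4a6 were not called with no upper UMI limit. For the 96 values of single genes named by rule (a gene in a comparison), 1545 alternatives kept the direction and the call, 88 kept the direction and lost the call, and 6 changed direction. Without integration and with doublets kept the adventitial-like class had 0 cells, so that its comparison has no value there and all fibroblast-like cells entered the other comparisons as 1 class. Too few lymphatic-endothelial-like cells were left for a value at a minimum of 20 cells, at a limit of 5% mitochondrial UMIs and with classes from markers in single cells. Between adventitial-like and other fibroblast-like cells, 4 collagens in place of 10 were called with classes from markers in single cells and 5 after thinning to 1000 UMIs. Between smooth-muscle-like and pericyte-like cells, where 13 were called, 7 were called at a limit of 5% mitochondrial UMIs, 8 without the library block and 7 without both libraries labelled day 5 and day 30, an alternative chosen after seeing the data, as was leaving out a shallow follicular cluster. The collagen share of smooth-muscle-like cells was 0.789% in place of 0.473% at a limit of 5% mitochondrial UMIs. Col4a6 changed to a log2 fold change of 1.25 (adjusted p = 0.216) between the fibroblast-like subsets, and Col13a1 to 0.56 (adjusted p = 0.659) between the mural classes, with no upper UMI limit. Between fibroblast-like and mural cells Col13a1 ran from -1.65 to 2.05 with 1 library left out, the latter without that labelled day 5, and was at 2.86 (adjusted p = 0.381, from 2 mural UMIs) without both doubted libraries, while Col4a2 was at 0.30 without integration and 0.29 with doublets kept. The cause of these changes was not tested. With 1 library left out, 7 to 9 collagens were called between the fibroblast-like subsets, 20 to 23 against mural cells, 9 to 12 between the mural classes, 15 to 17 between blood-endothelial-like and follicular-like cells, 5 to 7 between the endothelial classes and 21 to 24 in Schwann-like cells. The collagen shares then ran from 4.4% to 5.85% in adventitial-like, 3.95% to 5.09% in other fibroblast-like, 0.689% to 1.04% in pericyte-like, 0.371% to 0.560% in smooth-muscle-like, 0.579% to 0.787% in blood-endothelial-like, 0.0998% to 0.159% in lymphatic-endothelial-like, 0.0602% to 0.0737% in follicular-like and 1.23% to 1.70% in Schwann-like cells. The median of all genes moved by up to 0.44 on the log2 scale (DESeq2, between the endothelial classes). The comparisons of classes were paired within libraries by the library block, and 8 in place of 13 collagens between the mural classes was the 1 count that moved by over 1.5 times without it. Between ages no paired analysis was possible because every age is 1 library. Depth limits the rare chains most, such as Col4a6 with 9 UMIs in smooth-muscle-like cells.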
